A study of Mus musculus with 27 samples.

Results

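Tnf, Birc2, Birc3, Nfkbia, Tnfaip3, Nfkb1, Nfkb2, Relb, Icam1 and Traf1 encode the cytokine TNF and components or targets of its signaling through NF-kB, a transcription factor. They were taken by gene name, and all 10 were found among the 19615 targets of a whole-transcriptome probe panel. The samples were liver metastases of MC38, a mouse colon carcinoma line, grown in C57BL/6 mice aged 2 months after injection into the portal vein. In 13 regions the metastases came from MC38 cells labelled CMTM6 knockdown, made with an shRNA, and in 14 control regions from MC38 cells with a nontargeting shRNA. CMTM6 is a membrane protein known for keeping PD-L1 at the cell surface. All regions were desmin-negative segments, the part of a chosen area that was left once the desmin-positive fibroblasts had been set apart, and other host cells may remain in them. The knockdown applied to the injected cells and not to the host, and the labels do not say which shRNA or clone was used. The study used 3 mice per group and the labels tie no region to a mouse. Some regions therefore came from the same animal, which makes p-values computed over regions too small and intervals too narrow.

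NF-kB proteins are dimers, held in the cytoplasm by inhibitors until a receptor such as the TNF receptor leads to the loss of the inhibitor. The dimers then enter the nucleus and activate cytokine, adhesion and survival genes, and among them the genes for their own inhibitors and subunits, which closes a feedback loop. A slower, noncanonical arm runs through the processing of the Nfkb2 product, which pairs with RelB. In tumors both the cancer cells and the immune cells around them use this pathway, so a transcript level in a mixed region is a sum over them. Fewer cells of a type and less RNA per cell cannot be told apart in such regions.

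GeoMx is a spatial assay in which each probe bound to the tissue bears a tag that light cuts off, and the tags set free in a chosen region are counted by sequencing. The deposited values had been normalized to a common upper quartile within each group alone (539 ± 0.959 in knockdown-labelled regions and 788 ± 1.45 in control regions, SD, n = 13 and 14), so the regions were brought to one median over all genes, called the common scale here. A gene's change on it is relative to the other genes, and a shift of every transcript at once would not be seen. Totals per region were 4223030 to 19827297 steps (median 11813174) in the knockdown-labelled regions, against 9977866 to 26328209 steps (median 18215202.5) in the control regions, a step being the unit of which nearly all values of a region were whole multiples. The transcript of the targeted gene, Cmtm6, stood at 610.0 ± 85.0 in the knockdown-labelled regions and at 634 ± 56.2 in the control regions (SD, n = 13 and 14; log2 fold change -0.06, SE 0.07, limma adjusted p = 0.631), so the label was not borne out by it and the regions are called knockdown-labelled. Of 12 epithelial markers 1 read above background, so the tumor cell type itself was not shown by its defining markers. In the knockdown-labelled regions 8 of the 18 markers of T or NK cells were called higher, with Cd3e, Lck and Nkg7 among them, while 6 of 16 hepatocyte markers were higher and 8 of 14 hypoxia genes were lower.

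On the common scale Tnf and Birc3 were higher in the knockdown-labelled regions, 1.23-fold and 1.20-fold, and the other 8 genes did not pass the test in either direction. Over all targets 1.31% were called higher and 2.58% lower (limma, adjusted p under 0.05 over all targets). Of the 10 genes 2 were called higher and 0 lower. At an unadjusted p under 0.05, 3 were higher and 0 lower, beside 1013 and 3061 of all 19615 targets. An exact rank-sum test called 1 higher and 0 lower, beside 191 and 419 of all targets. The median log2 fold change was 0.03 over the 10 genes and -0.04 over all targets. The feedback inhibitors Nfkbia and Tnfaip3 and the subunits Nfkb1, Nfkb2 and Relb were all within 0.10 of 0 on the log2 scale. All 10 genes read above the background limit, which is percentile 95 of the mean log2 levels of 1125 genes for odorant, taste, vomeronasal and trace amine receptors (log2 7.63), and 6 of them read above percentile 99.

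**Figure D1:**
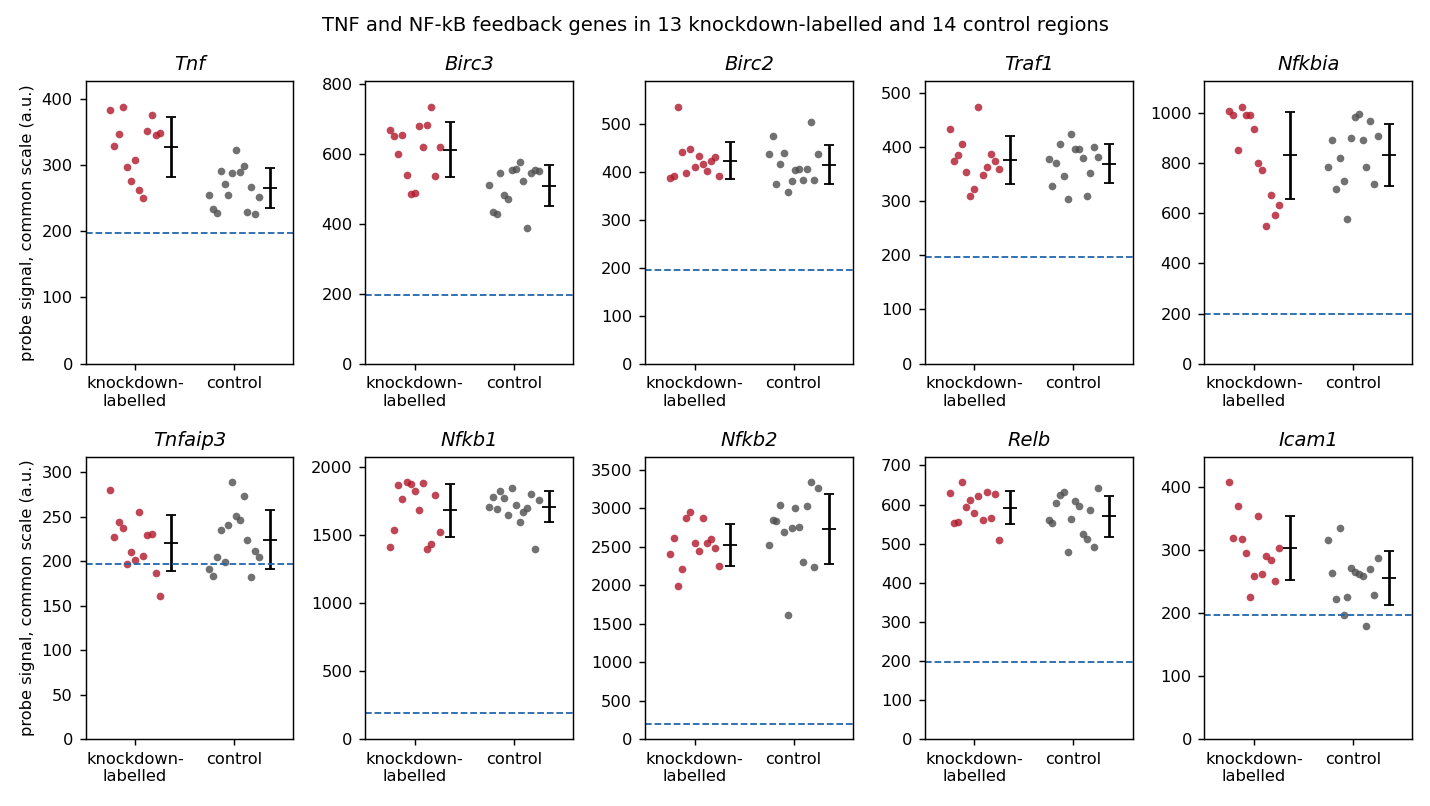
Probe signal of each of the 10 genes on the common scale (arbitrary units, linear axis starting at 0), with 1 point per region, 13 knockdown-labelled regions on the left and 14 control regions on the right. The mark with bars is the mean ± SD and the dashed line is the background limit. For Tnf 8 of 13 knockdown-labelled regions, and for Birc3 9 of 13, lie above the highest control region, and for the other genes the groups overlap over most of their range.

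The genes lie at separate places in the genome except Birc2 and Birc3, which are neighbors on chromosome 9. In the GENCODE annotation of GRCm38 Tnf spans chr17:35199381-35202007, Birc3 chr9:7848699-7873186 and Birc2 chr9:7818227-7837064, all on the minus strand. Nfkbia lies at chr12:55489410-55492647, Tnfaip3 at chr10:19000910-19015657, Traf1 at chr2:34941750-34961772, Nfkb1 at chr3:135584655-135691547 and Relb at chr7:19606217-19629438, also on the minus strand. Nfkb2 at chr19:46304320-46312385 and Icam1 at chr9:21015985-21028817 lie on the plus strand. The panel's probe positions were not used here, so which exon or UTR a probe reads is not given.

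RefSeq promoter windows of GRCm38.p6, from 250 bases before to 50 bases after the start, were held for 8 of the 10 genes. They were searched on both strands for the NF-kB (kB) consensus of 10 bases and for TATAAA, the core of the TATA box. The kB consensus was found in 8.46% of all 32851 windows and TATAAA in 13.6%. On the gene strand TATAAA was found in the windows of Tnf, Icam1 (outside the stretch shown) and Tnfaip3. On the other strand it was found in that of Nfkbia, and the windows of Birc3, Birc2, Traf1 and Nfkb2 had none. The 2 genes that rose and Icam1 are shown first, each from 60 bases before to 10 bases from the start, with TATAAA in capitals where it occurs in that stretch. None of these 3 genes had a match to the kB consensus in its window, which says only that those letters are not in that window.
Tnf, chr17:35201998-35202067, minus strand: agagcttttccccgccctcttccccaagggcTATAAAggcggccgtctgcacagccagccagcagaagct
Birc3, chr9:7873161-7873230, minus strand: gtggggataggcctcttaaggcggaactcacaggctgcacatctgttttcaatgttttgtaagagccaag
Icam1, chr9:21015880-21015949, plus strand: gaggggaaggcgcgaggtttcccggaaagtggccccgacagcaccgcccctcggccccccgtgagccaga

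Nfkbia, Tnfaip3 and Nfkb2 had matches to the kB consensus, and they are shown because they are the feedback genes with the motif in their windows. The match is in capitals. It lies 29 to 20 bases before the start in Nfkbia, 12 to 3 and 125 to 116 bases before it in Tnfaip3, and 39 to 30 bases before the first start of Nfkb2, where an overlapping match begins 1 base later. A further match of Nfkb2, also shown, lies 10 to 19 bases after its second start. Not shown are matches 11 to 2 bases before its first start and 236 to 227 bases before its second. Traf1 and Birc2 had no match in their windows. A match is a description of the sequence and not a bound site.
Nfkbia (start), chr12:55492647-55492696, minus strand: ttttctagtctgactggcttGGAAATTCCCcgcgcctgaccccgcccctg
Tnfaip3 (near), chr10:19015393-19015442, minus strand: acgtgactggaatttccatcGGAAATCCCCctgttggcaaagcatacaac
Tnfaip3 (far), chr10:19015506-19015555, minus strand: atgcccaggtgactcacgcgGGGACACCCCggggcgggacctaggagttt
Nfkb2 (first start), chr19:46304678-46304727, plus strand: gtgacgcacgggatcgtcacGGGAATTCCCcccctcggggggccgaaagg
Nfkb2 (second start), chr19:46305685-46305734, plus strand: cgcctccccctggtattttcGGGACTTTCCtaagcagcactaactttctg

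Tnf encodes the ligand, a cytokine made mainly by macrophages and T cells and able to act back on the cells around it. Its signal was 251 at the lowest, 344 at the median and 388 at the highest in the 13 knockdown-labelled regions, against 226, 261 and 323 in the 14 control regions. The knockdown-labelled regions 4, 1 and 11 were highest and regions 9, 8 and 6 lowest, and 12 of 13 lay above the control median. The groups overlapped, with 5 of 13 knockdown-labelled regions inside the control range and 4 of 14 control regions below every knockdown-labelled one. The mean was 327 ± 45.5 in knockdown-labelled regions and 265 ± 30.4 in control regions (SD, n = 13 and 14), a log2 fold change of 0.30 (SE 0.07, 95% interval 0.16 to 0.44, limma adjusted p = 0.0124). The mean level was 1.48 times the background limit and the readings were 106 to 582 steps, and with the background subtracted the log2 fold change was 0.50 (adjusted p = 0.0121).

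Tnf was called in 27 of 27 fits with a region left out, at 0.28 to 0.33. With the mean level of T or NK cell markers as a covariate it was 0.18 (adjusted p = 0.251), with that of the macrophage list 0.28 (adjusted p = 0.112), and with the log2 total 0.31 (adjusted p = 0.0935), in fits that called 1, 1 and 23 of all targets higher. The call of Tnf was also lost with the hepatocyte list as a covariate (0.27, limma adjusted p = 0.0531), in a fit that called 276 of all targets higher.

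The cellular inhibitors of apoptosis Birc2 (cIAP1) and Birc3 (cIAP2) are ubiquitin ligases of the TNF receptor complex, and Birc3 is a classical target of NF-kB. Birc3 stood at 485, 619 and 735 in knockdown-labelled regions, against 389, 534 and 577 in control regions (lowest, median and highest). The knockdown-labelled regions 11, 10 and 8 were highest, while regions 6 and 7 lay among the lower controls. In all, 9 of 13 lay above the highest control region and 5 of 14 control regions lay below every knockdown-labelled one. The mean was 612 ± 78.2 in knockdown-labelled regions and 509 ± 58.7 in control regions (SD, n = 13 and 14), a log2 fold change of 0.27 (SE 0.07, 95% interval 0.13 to 0.40, limma adjusted p = 0.0246). It was called in 26 of 27 fits with a region left out, and without control region 3 it was 0.25 (adjusted p = 0.0507). The call was also lost with T or NK cell markers as a covariate (0.05, adjusted p = 0.711), with the log2 total as a covariate (0.25, adjusted p = 0.199), by the exact rank-sum test (adjusted p = 0.0694) and with the same upper quartile (0.31, adjusted p = 0.0756) or total (0.32, adjusted p = 0.0714).

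Birc2, which cells make without a signal, stood at 387, 416 and 537 in knockdown-labelled regions, against 359.5, 407 and 505 in control regions. Knockdown-labelled region 3 and control regions 12 and 2 were the highest. The groups overlapped over nearly their whole range, and the log2 fold change was 0.03 (95% interval -0.08 to 0.14, adjusted p = 0.801). Because both genes are read in the same region, their ratio does not depend on how regions are scaled. The log2 ratio of Birc3 over Birc2 was 0.52 ± 0.24 in knockdown-labelled regions and 0.29 ± 0.22 in control regions (SD, n = 13 and 14), and 10 of 13 knockdown-labelled regions exceeded the mean of the control regions. The ratio was chosen after the values of both genes had been seen, so it is a description and adds nothing to the call of Birc3. The 2 genes are paralogs, and how far a probe for one reads the other cannot be judged from the files.

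Traf1, an adaptor that binds the cIAPs and is itself induced by NF-kB, stood at 309.6, 374 and 474 in knockdown-labelled regions, against 304, 378 and 423 in control regions. Knockdown-labelled regions 8 and 1 were above every control region and 5 of 13 were above the control median. The groups overlapped almost wholly, with a log2 fold change of 0.02 (95% interval -0.10 to 0.15, adjusted p = 0.861).

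Nfkbia encodes IkBα, the inhibitor that holds NF-kB dimers in the cytoplasm. Its signal was 549.5, 851 and 1024 in knockdown-labelled regions, against 574, 854 and 997 in control regions (lowest, median and highest). The means were 831 ± 173 in knockdown-labelled regions and 831 ± 124 in control regions (SD, n = 13 and 14), a log2 fold change of -0.02 (95% interval -0.22 to 0.18, adjusted p = 0.952). The equal means covered a wide spread among the knockdown-labelled regions: regions 10, 12, 13 and 11 were the lowest at 549.5, 591, 632 and 672, and regions 1 to 7 lay at 851 to 1024. The labels give no batch or animal that would mark off these regions. The within-group SD of Nfkbia, 0.28 on the log2 scale, stood at percentile 88.6 of the genes above background, the highest of the 10. Over 27 regions with group means removed Nfkbia had a Pearson r of 0.43 with the log2 total of steps (0.54 in knockdown-labelled and 0.23 in control regions), and the part of the total in this spread was not tested.

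Tnfaip3 encodes A20, a ubiquitin-editing enzyme that shuts down TNF receptor signaling. It stood at 161, 227 and 279.7 in knockdown-labelled regions, against 182, 217 and 288 in control regions, with no knockdown-labelled region above the highest control one. The log2 fold change was -0.02 (95% interval -0.17 to 0.13, adjusted p = 0.907). Its mean level was 1.12 times the background limit and it read above that limit in 22 of 27 regions, the least of the 10 genes on both counts.

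Nfkb1 encodes p105, the precursor of the p50 subunit, and stood at 1399, 1763 and 1888 in knockdown-labelled regions, against 1401, 1714 and 1848 in control regions. Knockdown-labelled regions 10, 1 and 11 and control region 13 were low, and 4 of 13 knockdown-labelled regions were above every control region. The log2 fold change was -0.03 (95% interval -0.15 to 0.10, adjusted p = 0.848).

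Nfkb2, whose p100 product is cut to the p52 subunit, stood at 1994, 2551 and 2957 in knockdown-labelled regions, against 1619, 2796 and 3337 in control regions. Only 3 of 13 knockdown-labelled regions lay above the control median and none above the highest control region, while control region 6 alone was below every other region. The log2 fold change was -0.10 (95% interval -0.27 to 0.07, adjusted p = 0.525). Relb, the partner of p52, stood at 510.0, 593 and 657 in knockdown-labelled regions, against 480.0, 575 and 642 in control regions, so the groups overlapped. It had the smallest within-group SD of the 10, 0.12 on the log2 scale (percentile 10.8 of the genes above background), and a log2 fold change of 0.06 (95% interval -0.05 to 0.16, adjusted p = 0.573).

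Icam1, an adhesion molecule that leukocytes bind and a classical target of NF-kB, stood at 226, 296 and 407 in knockdown-labelled regions, against 179, 263 and 334 in control regions. Knockdown-labelled regions 1, 3 and 8 were above every control region and 9 of 13 were above the control median. The mean was 303 ± 50.9 in knockdown-labelled regions and 256 ± 42.5 in control regions (SD, n = 13 and 14), a log2 fold change of 0.24 (SE 0.09, 95% interval 0.07 to 0.42). It did not pass the test (unadjusted p = 0.00801, limma adjusted p = 0.0977). The level was 1.39 times the background limit, and with T or NK cell markers as a covariate the log2 fold change was -0.02.

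The values as deposited gave another picture, because the groups had been normalized apart. On them all 10 genes were called lower in the knockdown-labelled regions, as were 98.0% of all targets, and the median of all targets was -0.54. Set against that shift, Tnf at -0.20, Birc3 at -0.24 and Icam1 at -0.26 had fallen least, and Nfkb2 at -0.61 most, with the other 6 genes between -0.45 and -0.53. Scaling to 15 housekeeping genes, 4 of which were themselves called lower on the common scale, moved the median of all targets to 0.14. All 10 genes were then positive and 6 were called higher, in a fit that called 4985 of all 19615 targets higher. Tnf was called higher under each of the other scalings tried, by upper quartile, total, TMM, housekeeping genes or the median over genes above background. Birc3 was positive under each of them but was not called with the same upper quartile (0.31, adjusted p = 0.0756), the same total (0.32, adjusted p = 0.0714) or the median over genes above background (0.31, adjusted p = 0.0707). Nfkbia, Tnfaip3 and Nfkb1 changed sign under all of these scalings and Nfkb2 under housekeeping scaling, with a call only for Nfkb1 under housekeeping scaling (0.16, adjusted p = 0.0276).

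**Figure D2:**
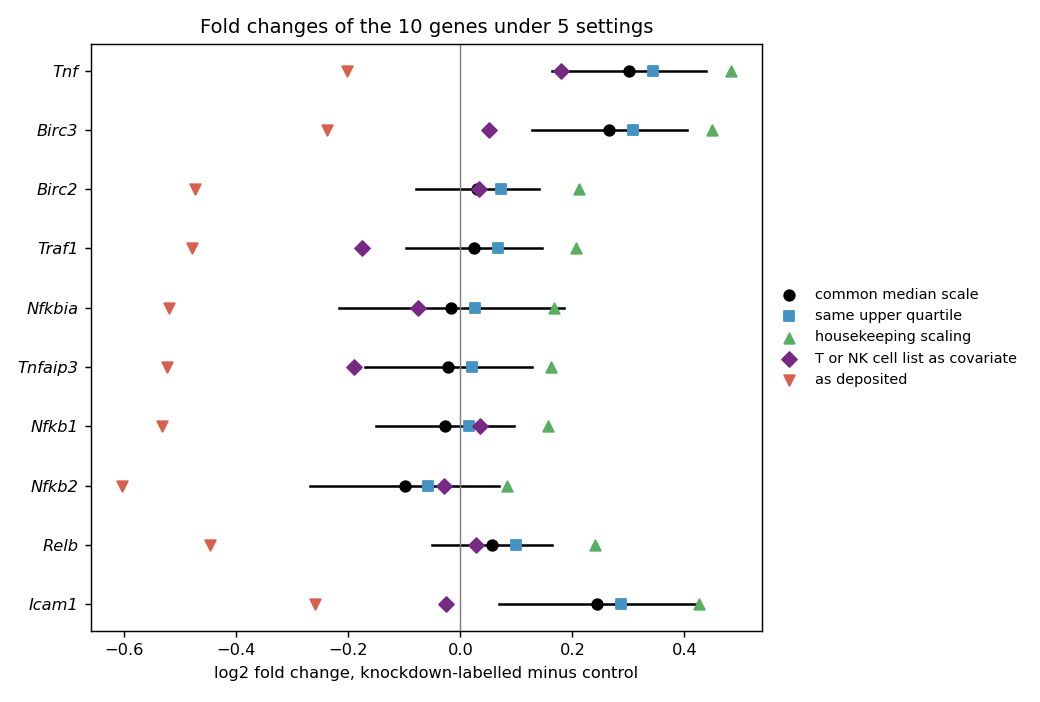
Log2 fold change of the 10 genes, knockdown-labelled minus control, under 5 settings, with the 95% interval of the common-scale fit as a line. Tnf at 0.30 and Birc3 at 0.27 stand apart from 0 on the common scale, all genes move together under the deposited and housekeeping scales, and Birc3 moves to 0.05 with T or NK cell markers as a covariate.

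Whether the 10 genes varied together was read from the regions within each group. Over 27 regions with group means removed, 31 of the 45 pairs had a positive r, 6 were above 0.5 and 0 were below -0.5, with a median of 0.25. These are descriptions over regions that share animals, and each pair also shares the region's scaling. Birc3, Traf1 and Icam1 were the 3 genes whose pairs were above 0.5 in both groups. Birc3 and Traf1 had an r of 0.74 (0.71 in knockdown-labelled and 0.78 in control regions), Traf1 and Icam1 0.69, and Birc3 and Icam1 0.62. Without the 2 regions farthest from the median of the first-named gene of each pair, these were 0.65, 0.64 and 0.45. Tnf was closest to Birc3, at 0.50. Nfkb2 and Relb, the noncanonical pair, had an r of 0.53 (0.09 in knockdown-labelled and 0.72 in control regions), and 0.35 without the 2 regions farthest from the median of Nfkb2. Birc3 and Nfkb1 ran against each other, at -0.48 (-0.72 in knockdown-labelled and -0.10 in control regions).

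**Figure D3:**
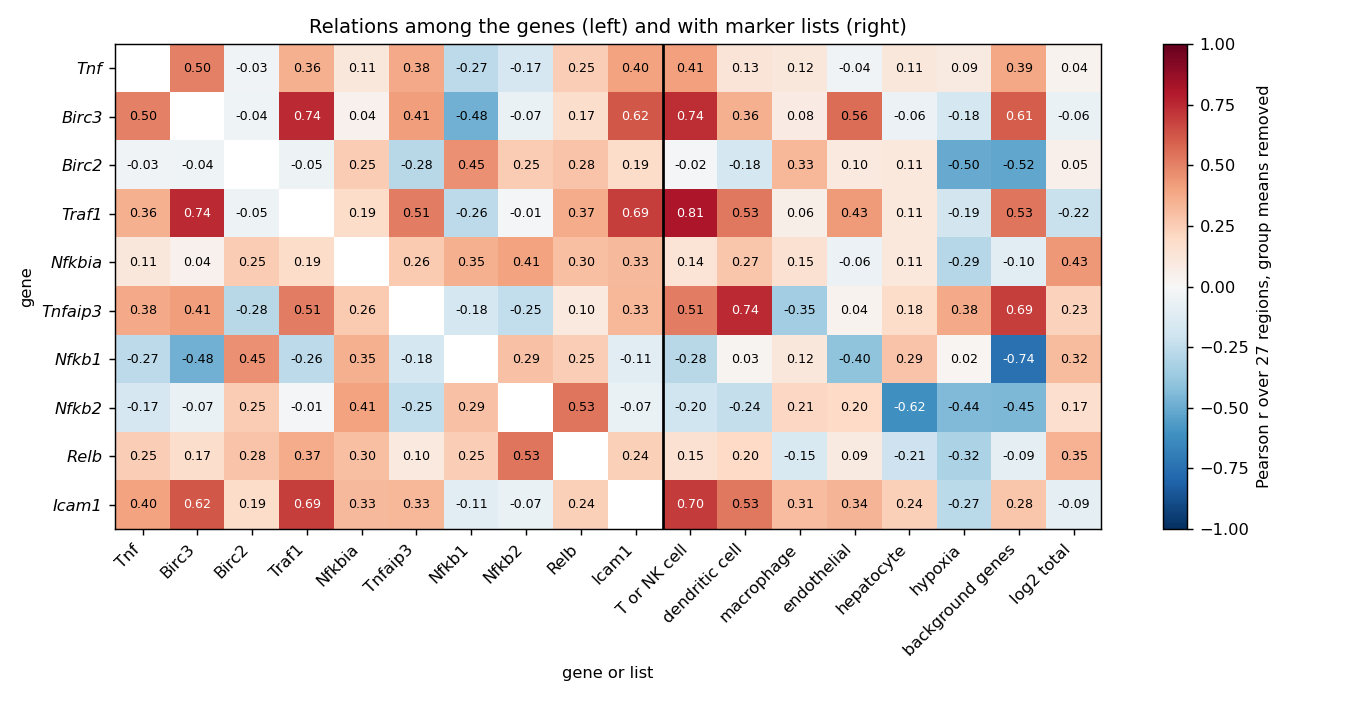
Pearson r over 27 regions of log2 common-scale values after the group means were removed, for pairs of the 10 genes (left of the line) and for each gene with the mean log2 of a marker list, the background genes or the log2 total of steps (right of the line). Birc3, Traf1 and Icam1 form the block of high values, and the same genes have the highest r with the T or NK cell list. The B or plasma cell, neutrophil, epithelial and fibroblast lists are not drawn.

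The same 3 genes varied with the T or NK cell markers, and also with other lists given further on. Traf1 had an r of 0.81 with the mean log2 of that list (0.91 in knockdown-labelled and 0.71 in control regions), Birc3 0.74 (0.69 in knockdown-labelled and 0.79 in control regions) and Icam1 0.70 (0.84 in knockdown-labelled and 0.58 in control regions). Without the 2 regions farthest from the list's median these were 0.77, 0.67 and 0.74. Tnf had an r of 0.41 with the list, and 0.31 without those regions. Tnfaip3 had an r of 0.51 with it (0.63 in knockdown-labelled and 0.40 in control regions). The summed level of the list was 3356 to 5851 in knockdown-labelled regions (median 4299) and 2607 to 4433 in control regions (median 3520), 9 of its 18 markers read above background, and none was listed at 0. With the list as a covariate Birc3 was 0.05 (adjusted p = 0.711) and Traf1 -0.18, in a fit that left 1 target called higher and 8 lower over all targets. The part of these cells in the levels of Tnf and Birc3 was not tested beyond these fits.

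**Figure D4:**
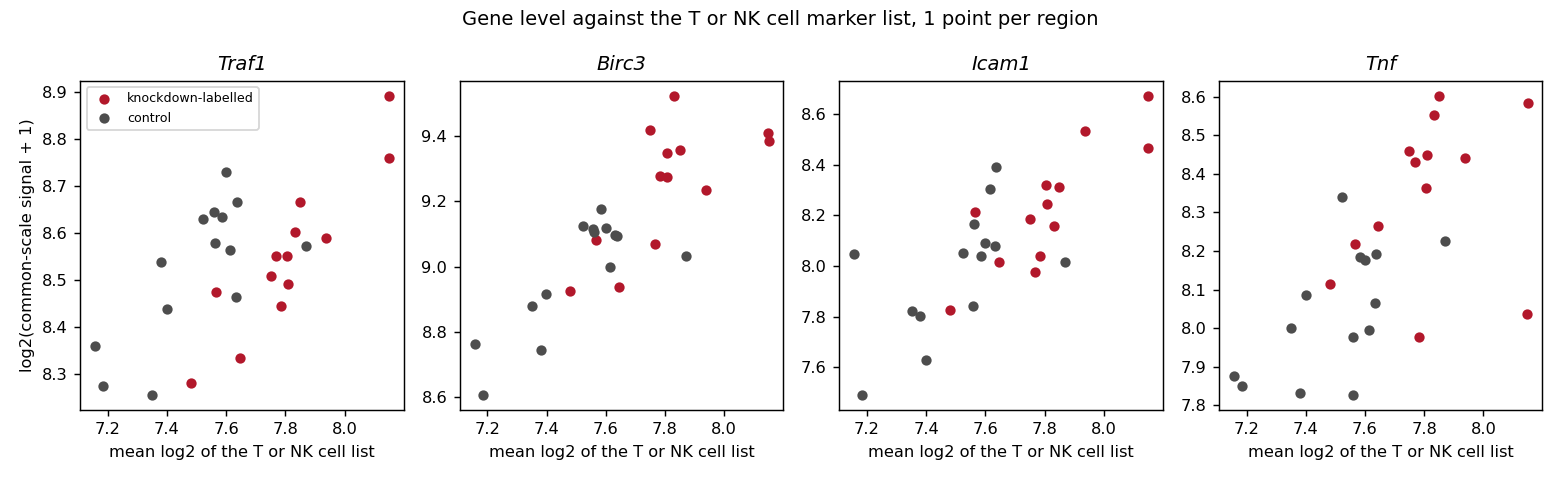
Log2 common-scale signal of Traf1, Birc3, Icam1 and Tnf (y axis) against the mean log2 of 18 T or NK cell markers (x axis), with 1 point per region. Within each group the first 3 genes increase with the list (r over 27 regions 0.81, 0.74 and 0.70), and the knockdown-labelled points extend to higher list values than the control points.

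Other lists went with several of the 10 genes too. The endothelial list, with 4 of 15 markers above background, had an r of 0.56 with Birc3 and 0.43 with Traf1. In the knockdown-labelled regions alone, Birc3 had an r of 0.85 with the endothelial list and 0.71 with the B or plasma cell list. Its r there was 0.85 with the background genes and 0.69 with the T or NK cell list. In the control regions these were 0.10, 0.56, 0.29 and 0.79, in the same order. The B or plasma cell list, none of whose 11 markers read above background, had an r of 0.64 with Birc3, 0.64 with Traf1, 0.56 with Icam1, 0.54 with Tnfaip3 and -0.56 with Nfkb1. The neutrophil list, with 2 of 12 markers above background, had an r of 0.70 with Tnfaip3, 0.55 with Birc3, 0.51 with Traf1 and 0.43 with Tnf and with Icam1. Its r was -0.46 with Nfkb1 and -0.45 with Nfkb2. The epithelial list had an r of -0.60 with Nfkb2 and -0.57 with Birc2 and with Nfkb1. It was 0.50 with Tnfaip3, 0.46 with Tnf and 0.43 with Birc3. The macrophage list was called higher in 2 of 18 genes, with a summed level of 14729 to 38980 in knockdown-labelled and 12475 to 23843 in control regions, and its r was 0.12 with Tnf, 0.08 with Birc3 and 0.31 with Icam1. The dendritic cell list had an r of 0.74 with Tnfaip3, 0.53 with Icam1 and 0.53 with Traf1, and 4 of its 10 markers read above background and none was called. Nfkb2 had an r of -0.62 with the hepatocyte list (-0.62 in knockdown-labelled and -0.81 in control regions), whose summed level was 2481 to 15058 in knockdown-labelled and 2345 to 7299 in control regions.

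The level of the background genes within a region went with several of the 10 genes, with an r of -0.74 for Nfkb1, -0.52 for Birc2, 0.69 for Tnfaip3, 0.61 for Birc3, 0.53 for Traf1, -0.45 for Nfkb2 and 0.39 for Tnf. Their median signal on the common scale was 116 to 135 in knockdown-labelled and 119 to 135 in control regions. With the background genes as a covariate Tnf was 0.34 (adjusted p = 0.00128), Birc3 0.32 (adjusted p = 0.000763) and Icam1 0.28 (adjusted p = 0.0264), in a fit that called 711 targets higher and 3238 lower.

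Searching the 10799 genes above background for the pattern most like each gene, again with group means removed, gave the following. Tnf was nearest to Slfn5 (r = 0.88), Ifit2 (0.87) and Zfp36 (0.85), the first a Schlafen family gene, the second an interferon-induced gene and the third an RNA-binding protein that speeds the decay of Tnf mRNA. Birc3 was nearest to Scarf1 (0.81), Il2rg (0.80), the common chain of several interleukin receptors, and Cd274 (0.78), which encodes PD-L1. Icam1 was nearest to Irf8 (0.86), a transcription factor of myeloid and lymphoid cells, Plek (0.79) and Dapp1 (0.78). Irf8 and Plek were themselves called higher in the knockdown-labelled regions, at 0.50 (adjusted p = 0.00349) and 0.26 (adjusted p = 0.0322). Traf1 was nearest to Ms4a4b (0.77), Il2rg (0.75) and Klrk1 (0.75), of which Klrk1 encodes an activating receptor of NK and T cells and was also in the T or NK cell list.

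Nfkbia was nearest to Fam207a (0.81), Timm10b (0.81), part of the mitochondrial import machinery, and Mta2 (0.79), a subunit of a chromatin-remodeling complex. Nfkb1 was nearest to Itsn2 (0.87), Mfn1 (0.85) and Stk4 (0.84), Nfkb2 to S100a10 (0.79), Klhl42 (0.79) and Fkbp2 (0.77), and Relb to Plekha4 (0.75), Cpt1c (0.61) and Col3a1 (0.61). Tnfaip3 was nearest to Grap2 (0.76), an adaptor of T-cell receptor signaling, Ccrl2 (0.74) and Adgrg5 (0.74). Birc2 was nearest to Tma7 (0.81), Rab8b (0.81) and Fkbp7 (0.78). These maxima over a large search show likeness in these regions and no more.

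The rest of the pathway was not called higher. Of 46 measured genes for other ligands, receptors, adaptors, kinases, subunits and inhibitors, 0 were called higher and 1 lower, beside 1.31% and 2.58% of all targets. At an unadjusted p under 0.05 there were 2 higher and 8 lower, beside 1013 and 3061 of all 19615 targets. These counts lie near the shares over all targets. An exact rank-sum test also called 0 higher, beside 191 of all targets. The median log2 fold change was -0.03, against -0.04 over all targets. The gene called lower was Tab2, an adaptor that joins ubiquitin chains to the kinase TAK1, at 483, 536 and 594 in knockdown-labelled regions, against 532, 598 and 733 in control regions (log2 fold change -0.18, SE 0.05, limma adjusted p = 0.0374). That call was lost under each of the scalings by upper quartile, total, TMM and housekeeping genes. Ikbkb, the IKKβ kinase, was at -0.15 (adjusted p = 0.109), Traf2, the adaptor that brings cIAPs to the receptor, at -0.16 (adjusted p = 0.153) and Tnip3, which binds A20 and read under the background limit, at -0.18 (adjusted p = 0.164). Rbck1 and Tax1bp1, the genes of the list with the highest probe signal, were at -0.11 (adjusted p = 0.320) and -0.07 (adjusted p = 0.594).

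Other textbook targets of NF-kB were not called either, though a list so short would hold few calls at the share over all targets. Of 32 measured targets 0 were called higher and 0 lower by limma, beside 1.31% and 2.58% of all 19615 targets of the panel. At an unadjusted p under 0.05 there were 2 higher and 0 lower, beside 1013 and 3061 of all targets. The exact rank-sum test called 0 of either, beside 191 higher and 419 lower of all targets. The median log2 fold change of the list was 0.04. Irf1, a transcription factor of the interferon response, came closest at 4590 to 9784 (median 6139) in knockdown-labelled regions, against 2865 to 6455 (median 4809.7) in control regions (log2 fold change 0.39, SE 0.12, limma adjusted p = 0.0629). Nod2, a sensor of bacterial wall fragments, was at 0.16 (adjusted p = 0.195), and Sele, the endothelial E-selectin that read under the background limit, at -0.10 (adjusted p = 0.254). Ptgs2, which encodes the prostaglandin enzyme COX-2, was at -0.47 (adjusted p = 0.277), with a range of 314 to 713 in knockdown-labelled regions and 347 to 2118 in control regions. Cxcl10, a chemokine that draws T cells, was at -0.05 (adjusted p = 0.964).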

How the data were processed

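Desmin-negative segments of frozen, formalin-fixed sections were hybridized with the mouse whole transcriptome panel, and areas were chosen by staining for desmin, pan-cytokeratin and nuclei. The authors deposited a table of upper-quartile normalized signal with a column for each region, made with the GeoMx DSP Analysis Suite. Software versions and filters: not given in the sources used here. Groups came from the labels. Replicate numbers follow accession order and name regions only. No label gives a batch.

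Each region was multiplied to the common median and tested with limma 3.58.1 (R 4.3.3, trend and robust settings, two-sided) on log2(signal + 1), with Benjamini-Hochberg adjustment over all 19615 targets and a threshold of 0.05. Fold changes on this scale understate the changes of low genes. At least 99.96% of a region's values were whole multiples of its step (tolerance 0.01). The smallest reading in any region lay between 10 and 126 steps, which does not settle whether a step is 1 count, so no count model was run and the sequencing depth is unknown. None of the 169 within-group pairs of regions was a repeat of the other within counting noise (lowest chi-square per degree of freedom 2.26). The fit was tested on simulated data. Promoter windows were searched with Python 3.11.15.

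Named besides the 10 genes were, in the pathway and target lists, the 4 genes of lowest p and the 2 of highest mean, and for each gene the 3 genes above background with the highest r. Cd3e, Lck and Nkg7 were named after their values were seen. The genes, lists and tests were chosen with earlier results of these data known. Covariates for the background genes and for the 2 lists of macrophages and of T or NK cells jointly, and the median over genes above background, were added after the data were seen.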

Additional observations from a re-analysis of the deposited data

How the results depend on the processing

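Of 20 alternatives, Tnf was called higher in 13 and lower in 1, the deposited values, over a range of -0.20 to 0.50 (adjusted p 0.00128 to 0.471). Birc3 was called higher in 10 and lower in 1, again the deposited values, over -0.24 to 0.45 (adjusted p 0.000763 to 0.779). With the macrophage, hypoxia or log2 total covariate the calls were lost at 0.28 to 0.32 for Tnf and 0.22 to 0.25 for Birc3. The fit with the hypoxia covariate called 0 of all 19615 targets higher and 0 lower. With the hepatocyte covariate Tnf lost its call at 0.27 (limma adjusted p = 0.0531), and Birc3 kept it at 0.28 (limma adjusted p = 0.0498). With the T or NK cell covariate the values themselves moved, to 0.18 for Tnf and 0.05 for Birc3. The mean log2 of that list was 7.81 in knockdown-labelled and 7.50 in control regions. It was 9.22 and 9.04 for the macrophage list and 9.56 and 10.1 for the hypoxia list, in the same order. List and group overlap in these fits, so a fit cannot fully part them.

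The number of the 10 genes called higher, 2 on the common scale, was 0 as deposited (where 10 were lower) and with the log2 total, macrophage, T or NK cell, hypoxia, or macrophage and T or NK cell covariates, 1 with the same upper quartile, the same total, the rank-sum test, the hepatocyte covariate and the median over genes above background, and 6 with housekeeping scaling. The 1 gene was Birc3 with the hepatocyte covariate and Tnf in the other settings that called 1. Without single regions the number was 1 to 3, with 1 without control region 3 and 3, Icam1 included, without knockdown-labelled region 6. The pathway list, with 1 called lower, had 46 lower as deposited, 6 lower and 2 higher with the background covariate, 1 higher with the same total and 13 higher with housekeeping scaling. It had 0 lower with the same upper quartile, the same total, TMM, housekeeping scaling, the median over genes above background, the log2 total, macrophage, T or NK cell, hypoxia and paired-list covariates, without the region of lowest total and without control regions 6 and 7, and 0 to 2 without single regions. The target list, with none called, had 24 lower as deposited and 7 higher with housekeeping scaling, 4 higher with the background covariate, 1 higher without the region of lowest total and 0 to 1 higher without single regions. Beside these counts, housekeeping scaling called 4985 of all 19615 targets higher. The background covariate called 711 higher and 3238 lower, and the deposited values 19222 lower. The hypoxia covariate and the macrophage and T or NK cell lists jointly called 0 of all targets higher and 0 lower. The macrophage covariate called 1 higher and 1 lower, the T or NK cell covariate 1 and 8, and the log2 total 23 and 4. The same upper quartile called 220 of all targets higher, the same total 257, the rank-sum test 191 and the hepatocyte covariate 276.

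Signs of small log2 fold changes turned in these settings, and the cause was not tested. As deposited the values were Tnf -0.20, Birc3 -0.24, Icam1 -0.26, Relb -0.45, Birc2 -0.47 and Traf1 -0.48. With housekeeping scaling they were Nfkb2 0.083, Nfkb1 0.16, Tnfaip3 0.16 and Nfkbia 0.17, with TMM Nfkb1 0.010, Tnfaip3 0.016 and Nfkbia 0.021, with the same upper quartile Nfkb1 0.015, Tnfaip3 0.020 and Nfkbia 0.026, with the same total Nfkb1 0.031, Tnfaip3 0.037 and Nfkbia 0.042, and with the median over genes above background Nfkb1 0.014, Tnfaip3 0.020 and Nfkbia 0.025. With the log2 total as a covariate they were Traf1 -0.013, Nfkb1 0.021, Tnfaip3 0.030 and Nfkbia 0.11, with the T or NK cell list Icam1 -0.025, Traf1 -0.18 and Nfkb1 0.035, with both lists Icam1 -0.056, Traf1 -0.16 and Nfkb1 0.016, with the macrophage list Birc2 -0.015 and Tnfaip3 0.054, with the hypoxia list Traf1 -0.012, Birc2 -0.055 and Tnfaip3 0.080, with the hepatocyte list Nfkb2 0.089, and with the background genes Birc2 -0.0053 and Tnfaip3 0.052. Without control regions 6 and 7 the value was Tnfaip3 0.020, and without the region of lowest total the values were Tnfaip3 0.015 and Nfkbia 0.014. Without single regions Nfkbia ranged over -0.056 to 0.031, Tnfaip3 over -0.051 to 0.015 and Traf1 over -0.0039 to 0.047. All 10 genes passed percentile 95 of the background and 6 passed percentile 99.

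A planned count model was not run, because a step could not be shown to be 1 count. No paired analysis was possible, because the labels tie no region to a mouse and no knockdown-labelled region to a control region. Tnfaip3, Icam1 and Tnf lay nearest to background, which limits the size of fold change their probes can show.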
